A study of Mus musculus with 20 samples.

Results

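The Ly6 and uPAR family of surface proteins was examined through 10 mouse genes, Ly6a, Ly6c1, Ly6c2, Ly6d, Ly6e, Ly6k, Ly6g6c, Lypd3, Plaur and Lynx1. They were taken by gene name alone from the 53380 genes measured in 20 libraries, and all 10 were found. A gene was tested where its normalized count (reads divided by a size factor for each library) was at least 10 in at least 3 libraries. This left 8 members, since Ly6c2 and Ly6k stayed under that level. The libraries were bulk RNA-seq of 5 cell populations sorted from mouse dorsal epidermis. Thy1hi and Thy1- keratinocytes (4 libraries each) were both positive for integrin-α6 and Sca1, hair follicle stem cells (HFSCs, 4 libraries) were α6+ Sca1- CD34+, and dendritic epidermal T cells (DETCs, 5 libraries), the γδ T cells resident in the epidermis, were Thy1+ and α6-, with low or no Sca1. Thy1hi YFP+ keratinocytes (3 libraries) came from mice in which CreERT2 under a Thy1 promoter switches on EYFP at Rosa26 after tamoxifen. The labels give the genotype Thy1.2CreERT2-Rosa26-EYFP and no treatment for every sample, while the study's methods describe wild-type C57BL/6J mice for the other 4 populations and induced mice for the YFP+ cells. They also give ages that rise from 8 to 27 weeks in sample order, where the series text gives 8 weeks. Both sexes and pooled mice were used, and p-values measure the spread of these libraries, which may be partly technical. The series was run in 2 batches that no label assigns, so a batch and a population cannot be told apart here.

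Proteins of this family carry the LU domain, a small disulphide-bonded fold with finger-like loops, and most of them sit on the outer face of the cell held by a glycosylphosphatidylinositol (GPI) anchor, as Thy1 itself does. Ly6a encodes Sca1, an antigen of stem and progenitor cells and of interfollicular keratinocytes, and in this study 1 of the antigens by which the cells were sorted. Plaur encodes uPAR, the receptor that holds the urokinase plasminogen activator at the cell surface, and Lypd3 encodes the related protein C4.4A of stratified squamous epithelium. Ly6d is an antigen of keratinocytes and early B lineage cells, Ly6e an interferon-inducible member expressed by T cells, and Lynx1 a modulator of nicotinic acetylcholine receptors.

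All libraries held 7781256 to 12982393 reads on genes, of which 13.1% to 41.5% fell on the ribosomal RNA gene Rn45s. Thy1, the sorted antigen, had 633 ± 113 normalized counts in Thy1hi, 902 ± 568 in Thy1hi YFP+, 69.1 ± 6.39 in Thy1-, 57.4 ± 28.5 in HFSC and 1937 ± 450 in DETC libraries (mean ± SD, as throughout). The summed count of 6 T cell genes ran from 14772 to 32331 in DETCs and from 108 to 381 in the other libraries, and none of these genes was at 0 throughout a population. Of the 6 follicle stem cell genes, 6 were called lower in Thy1hi and 5 in Thy1- cells than in HFSCs. A pair of libraries stood apart. HFSC 4 had the lowest Rn45s share (13.1%) and 53789 counts over 6 basal keratinocyte genes, against 108382 to 118779 in the other HFSC libraries. DETC a, 1 of 2 DETC libraries whose column number matches no label (a and b), had 10407 counts over those genes, against 34909 to 47870 in the other DETC libraries. The values of Thy1- library 4 stood in the wrong row for 3212 genes and were put back, which moved none of the members.

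Of the 10 genes, 7 lie within 364.1 kb of mouse chromosome 15 (GRCm38), in the order Lynx1 (ENSMUSG00000022594, chr15:74747852-74753046), Ly6d (ENSMUSG00000034634, chr15:74762056-74763620), Ly6k (ENSMUSG00000044678, chr15:74796874-74799986), Ly6e (ENSMUSG00000022587, chr15:74955051-74959905), Ly6a (ENSMUSG00000075602, chr15:74994877-74998031), Ly6c1 (ENSMUSG00000079018, chr15:75044018-75048830) and Ly6c2 (ENSMUSG00000022584, chr15:75108158-75111970). Of these, only Ly6e is on the plus strand. Plaur (ENSMUSG00000046223, chr7:24462484-24475968) and Lypd3 (ENSMUSG00000057454, chr7:24636550-24641118) lie 160.6 kb apart on the plus strand of chromosome 7. Ly6g6c (ENSMUSG00000092586, chr17:35065388-35070050) is on chromosome 17, where it overlaps Mpig6b on the other strand. Ly6k and Lypd3 overlap antisense genes, and whether strand was used in counting is not given in the sources used here, so reads of such pairs cannot be told apart.

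Ly6c1 and Ly6c2 are near copies, so reads of one can match the other and their counts are uncertain. Their coding sequences are 97.7% identical over 393 bases, with an unbroken identical run of 188 bases. Of the 100-base windows of annotated Ly6c1 transcripts, 10.1% also occur in Ly6c2 or Ly6a, beside 5.81% for Ly6c2 (shared with Ly6c1) and 1.45% for Ly6a (shared with Ly6c1). Ly6a is 82.4% identical to Ly6c1 in coding sequence. The first 120 coding bases of each are given from the start codon (GENCODE transcripts, GRCm38), and capitals mark the 6 bases that differ.
Ly6c1: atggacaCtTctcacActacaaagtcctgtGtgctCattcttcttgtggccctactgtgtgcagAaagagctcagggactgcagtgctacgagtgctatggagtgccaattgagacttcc
Ly6c2: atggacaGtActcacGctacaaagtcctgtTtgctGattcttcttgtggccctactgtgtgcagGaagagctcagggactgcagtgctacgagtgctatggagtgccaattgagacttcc

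Promoters are given for the pair of neighbours on chromosome 7, of which Plaur was called higher and Lypd3 lower in DETCs than in Thy1hi cells, and for Ly6g6c, whose Thy1hi libraries lay under all Thy1- libraries. Each covers 250 bases before and 50 after a RefSeq transcript start on the plus strand of GRCm38.p6, and the table used holds no entry for Ly6a, Ly6d, Ly6e, Ly6k or Lynx1. Capitals mark matches on either strand to the AP-1 motif (TGANTCA), the GC box (GGGCGG) or the TATA box (TATAAA), found in 7.81%, 35.7% and 13.6% of 32851 mouse promoters of the same length.
Plaur, chr7:24462233-24462532: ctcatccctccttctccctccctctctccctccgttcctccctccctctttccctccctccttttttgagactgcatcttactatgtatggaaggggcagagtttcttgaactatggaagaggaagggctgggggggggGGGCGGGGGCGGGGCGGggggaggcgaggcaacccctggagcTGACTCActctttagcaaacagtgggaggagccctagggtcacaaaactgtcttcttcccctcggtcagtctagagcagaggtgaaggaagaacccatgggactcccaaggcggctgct
Lypd3, chr7:24636320-24636619: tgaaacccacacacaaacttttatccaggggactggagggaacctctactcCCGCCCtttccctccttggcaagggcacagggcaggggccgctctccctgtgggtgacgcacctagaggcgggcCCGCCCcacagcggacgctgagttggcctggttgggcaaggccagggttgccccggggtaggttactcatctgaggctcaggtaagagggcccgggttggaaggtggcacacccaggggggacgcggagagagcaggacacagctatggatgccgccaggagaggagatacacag
Ly6g6c, chr17:35067075-35067374: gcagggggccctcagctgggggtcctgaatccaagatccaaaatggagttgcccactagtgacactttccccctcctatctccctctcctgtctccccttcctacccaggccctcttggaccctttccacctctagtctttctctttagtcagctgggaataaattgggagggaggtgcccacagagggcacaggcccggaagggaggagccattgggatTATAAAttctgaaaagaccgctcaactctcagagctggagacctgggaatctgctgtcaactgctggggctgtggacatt

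The Plaur promoter held 1 AP-1 match, 69 bases before the start, and 3 GC boxes that begin 111, 105 and 100 bases before it, the last 2 of which share a base. That of Lypd3 held 2 GC boxes, 199 and 125 bases before the start, and that of Ly6g6c a TATA box 30 bases before it. No promoter of the 5 members in the table held the interferon-stimulated response element (3.44% of promoters) or the gamma-activated site (TTCNNNGAA, 8.3%).

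Levels of different genes were compared per kb of exon, with all annotated exons of a gene merged, whichever of its transcripts the cells expressed. Lypd3 and Ly6d were the most abundant members in every population, with means of 1306 ± 213 and 1341 ± 409 normalized counts per kb in Thy1hi cells and of 566 ± 286 and 556 ± 261 in DETCs. Ly6a, Ly6g6c and Ly6e followed in Thy1hi cells with 172 ± 30.0, 121 ± 63.7 and 66.6 ± 14.5 per kb. By count alone Ly6e (252) stood above Ly6a (207) and Ly6g6c (166) in Thy1hi cells, so this order rests on the exon length used. Ly6c1, Plaur and Lynx1 were lower there, with 19.5 ± 11.8, 12.2 ± 4.97 and 5.90 ± 1.46 per kb. In DETCs, Plaur reached 128 ± 57.7 per kb and stood below Ly6e (162 ± 55.4) and Ly6g6c (172 ± 77.3) by less than the spread between libraries.

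**Figure D1:**
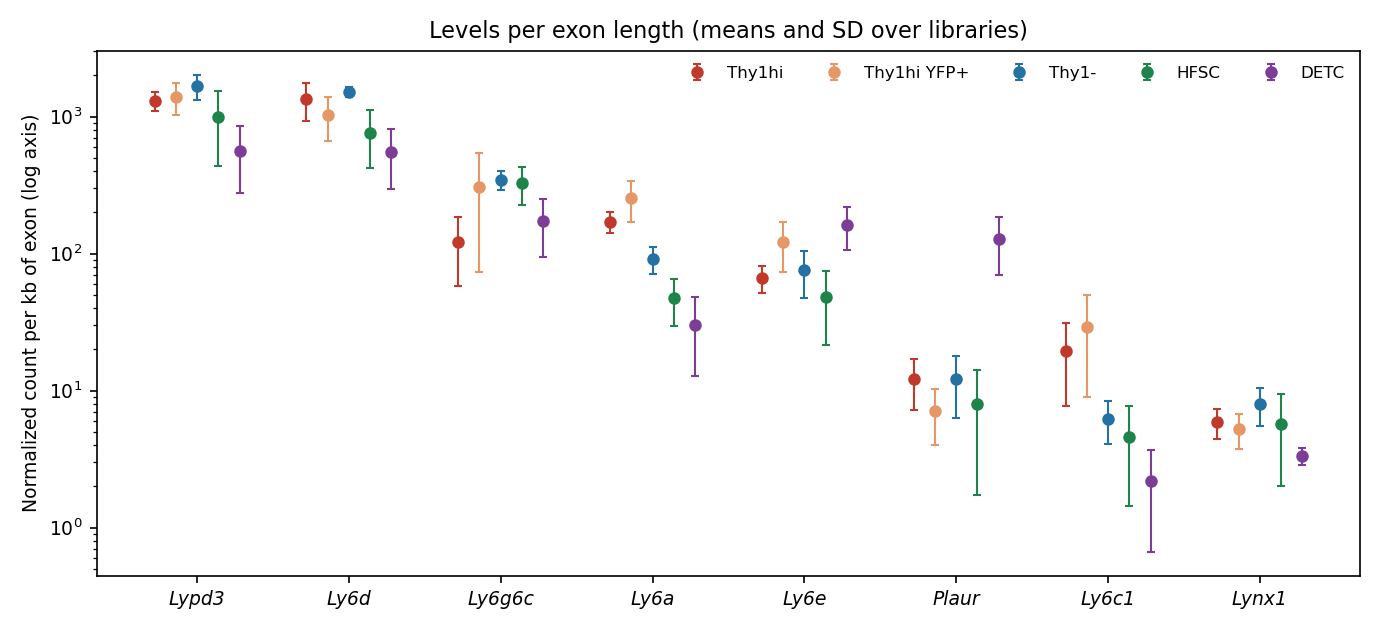
Mean normalized counts per kb of exon (log axis) of the 8 tested members, with the SD over libraries as bars and 1 colour for each sorted population. Lypd3 and Ly6d are highest throughout, and Plaur moves from 12.2 per kb in Thy1hi cells to 128 in DETCs.

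The 6 comparisons asked how the 2 keratinocyte populations differ from each other, from follicle stem cells and from T cells, and whether the YFP-labelled cells differ from Thy1hi cells, and they share libraries. Relative to Thy1- cells, none of the 8 tested members was called in Thy1hi cells by limma (0.337% of 17204 genes were called, 0.116% higher and 0.221% lower), with 2 members at an unadjusted p under 0.05, and 0 by edgeR and DESeq2. With the replicate number as a block, which pairs the libraries by number, 3 of 8 were called (6.61% of all genes). The libraries of the same 3 did not overlap (6.77% of all genes). No label states that libraries of 1 number share mice or a sort, so this pairing is assumed. Relative to HFSCs, 2 of 8 were called in Thy1hi cells, Ly6c1 and the sorted antigen Ly6a, both higher (13.4% of genes called, 6.51% higher), and 0 in Thy1- cells (6.08% of genes called, 2.56% higher and 3.52% lower), where 2 had an unadjusted p under 0.05 and edgeR and DESeq2 called 0. DETCs differed from Thy1hi cells in 6 of 8 members (36.6% of genes), 2 of them higher (19.9%) and 4 lower (16.6%). They differed from HFSCs in 2 of 8, both higher (39.7% of genes called, 21.2% higher). None was called between Thy1hi YFP+ and Thy1hi cells (0.0116%), 0 at an unadjusted p under 0.05 and 0 by edgeR and DESeq2. The median log2 fold change of the members was 0.83 in Thy1hi and 0.87 in Thy1- cells relative to HFSCs, beside 0.024 and 0.039 over all genes tested. Without HFSC 4, every member's difference from HFSCs was lower in both populations. Lypd3 was then at 0.027 in Thy1hi and 0.37 in Thy1- cells, and Plaur at 0.20 and 0.16. The members' median was −1.09 and −0.58 in DETCs relative to Thy1hi cells and HFSCs, beside −0.0044 and 0.023. All these medians include the sorted antigen Ly6a. The 2 members called in Thy1hi cells relative to HFSCs are Ly6a, set by the gates, and Ly6c1, tested through the populations in which it was high. Both are also among the 4 called lower in DETCs relative to Thy1hi cells.

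**Figure D2:**
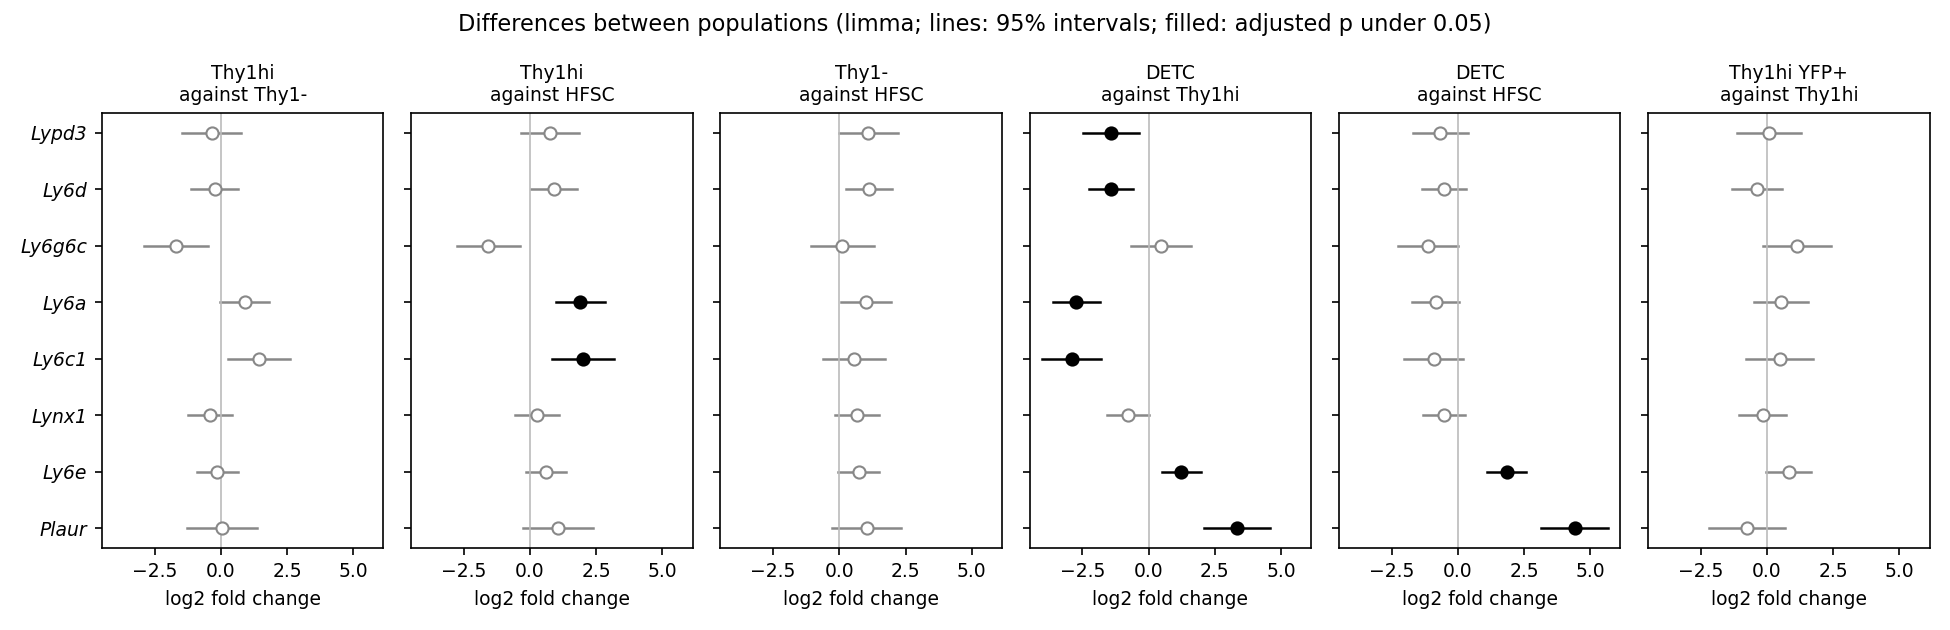
Log2 fold change of the 8 tested members in the 6 comparisons (limma, all 20 libraries), 1 panel each, with 95% intervals as lines and called differences as filled points. Plaur and Ly6e are the 2 members called higher in DETCs in both comparisons, and Ly6a and Ly6c1 are called higher in Thy1hi cells than in HFSCs. Ly6a is a sorted antigen, and Ly6c1 was tested through the populations in which it was high.

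Ly6a, the gene of the sorted antigen Sca1, had 261, 186, 196 and 185 normalized counts in Thy1hi libraries 1 to 4 and 97.3, 94.9, 104 and 148 in Thy1- libraries 1 to 4. HFSC libraries 1 to 4 had 78.5, 42.4, 72.7 and 35.0, and DETC libraries 1, 2, 3, a and b had 66.5, 34.6, 36.4, 6.86 and 38.4. Every Sca1+ library was thus above every library of the gates set to low or no Sca1, which checks the labels and is no result of its own. Libraries of YFP+ cells had 318, 200.5 and 401 and lay with the Sca1+ libraries, as their titles state, although their cell type label names Sca1- cells. The Thy1hi and Thy1- cells came from the same Sca1 gate, and their libraries did not overlap (207 ± 36.1 against 111 ± 24.7, 1.86-fold, exact two-sided permutation p = 0.0286, the smallest that 4 against 4 allows). The log2 fold change of 0.90 (SE 0.45) was not called in the fit of all libraries (adjusted p = 0.72) and was called with the replicate block (SE 0.18, adjusted p = 0.0142), with 4 of 4 pairs higher in Thy1hi cells.

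Ly6c1, an antigen of endothelium and of subsets of leukocytes, followed the same order at a lower level. Thy1hi libraries 1 to 4 had 61.8, 27.7, 22.0 and 19.4 normalized counts, Thy1- libraries 9.73, 8.10, 15.8 and 8.20, and HFSC libraries 15.0, 5.43, 7.48 and 2.80. All Thy1hi libraries were above all Thy1- and all HFSC libraries, with Thy1hi 1 far above the other Thy1hi libraries. YFP+ libraries 1 to 3 had 41.9, 19.35 and 86.2, so that YFP+ 3 was above Thy1hi 1. In DETCs the counts were 3.91, 1.02, 7.12, 1.37 and 4.80, which come from 1 to 9 reads. Outside Thy1hi and YFP+ libraries only Thy1- 3 and HFSC 1 reached the filter's level of 10. Ly6c1 was thus tested through the populations in which it was high. Thy1hi exceeded HFSCs by 2.0 on the log2 scale (SE 0.56, adjusted p = 0.0213, exact permutation p = 0.0286), a call that was lost without Thy1hi 1 (1.65, adjusted p = 0.0947) and without HFSC 4 (1.66, adjusted p = 0.0719). The difference from Thy1- cells of 1.45 (SE 0.56, adjusted p = 0.48) was called only with the replicate block (SE 0.38, adjusted p = 0.0495). Relative to Thy1hi cells DETCs were lower by 2.90 (SE 0.53, adjusted p = 0.000207), and Ly6a, as their gate sets, was lower by 2.74 (SE 0.43, adjusted p = 3.21e-05). As values were fitted as log2(normalized count + 1), these differences understate changes of low genes, and with a pseudocount of 10 those of Ly6c1 were 1.22 in Thy1hi cells relative to HFSCs and −1.57 in DETCs relative to Thy1hi cells.

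Levels of basal keratinocyte genes and of genes of other cells are given beside these differences. The summed count of 6 basal genes (Krt5, Krt14, Itga6, Itgb4, Col17a1 and Trp63) was 175207 to 233351 in Thy1hi, 78616 to 126292 in Thy1- and 53789 to 118779 in HFSC libraries, and with the block 5 of the 6 genes were called higher in Thy1hi than in Thy1- cells. The 6 fibroblast genes summed to 1946, 983, 186 and 404 in Thy1hi libraries 1 to 4 and to 123 to 215 in Thy1- libraries, with none at 0 throughout a population, and 4 of 6 were called higher in Thy1hi cells with the block. Fibroblast genes were thus highest in Thy1hi 1, which of the 4 Thy1hi libraries was highest for both members. The basal sum was also highest of the 4 in Thy1hi 1 (233351, against 179790, 175207 and 226140 in Thy1hi 2 to 4). Fibroblast genes were low, 44.6 to 218, in the 3 YFP+ libraries, where Ly6a was 200.5 to 401 and Ly6c1 19.35 to 86.2. The 6 endothelial genes overlapped, with sums of 25.2 to 92.2 in Thy1hi and 35.2 to 109 in Thy1- libraries. The myeloid and Langerhans genes, of which 5 of 6 were tested, summed to 402 to 927 in Thy1hi and 712 to 1460.2 in Thy1- libraries, and 3 were called lower in Thy1hi cells with the block. In HFSC 4 they summed to 54.0, against 1682 to 3545 in the other HFSC libraries. The part of other cells in these results was not tested, and in bulk samples fewer cells of a type and less RNA per cell cannot be told apart.

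Ly6c2, known as an antigen of monocytes, had at most 5 reads in any Thy1hi and 1 read in any HFSC library, and 10, 13, 2, 0 and 3 reads in DETC libraries 1, 2, 3, a and b. Libraries of all neighbouring populations overlapped, and its place beside its near copy makes even these reads uncertain. Ly6k, a gene of the testis and of some squamous tumours, had at most 5 reads in any library and 0 reads in the 3 YFP+ libraries.

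Lypd3, the gene of C4.4A, had the highest count of the members. It had 2286, 2587, 1823 and 1919 normalized counts in Thy1hi libraries 1 to 4, 3453, 3002, 2452 and 2125 in Thy1- libraries 1 to 4, and 2262, 2034, 1993 and 279 in HFSC libraries 1 to 4. The Thy1- library was the higher in 4 of 4 pairs, but the populations overlapped, and the log2 fold change of −0.35 was not called without (SE 0.53, adjusted p = 0.999) or with the block (SE 0.11, adjusted p = 0.0901). HFSC 4 lay far under the other HFSC libraries. DETC libraries had 1055, 873, 919, 249.7 and 1569.7, all under every Thy1hi library (log2 fold change −1.41, SE 0.50, adjusted p = 0.0330, exact permutation p = 0.0159). That call was lost without DETC a (−0.99, adjusted p = 0.104) and without Thy1hi 1, 2 or 4 (adjusted p 0.0710, 0.0786 and 0.0521), and with no filter on low values (0.0516).

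Ly6d had 1363, 1048, 625 and 953 normalized counts in Thy1hi, 1261, 1036, 1076 and 1151 in Thy1- and 679, 527, 837 and 234 in HFSC libraries 1 to 4. Every Thy1- library was above every HFSC library, by 1.13 on the log2 scale (SE 0.42, exact permutation p = 0.0286), which was not called over all genes (adjusted p = 0.111) except after rescaling to equal totals (1.35, adjusted p = 0.0243). Thy1hi and Thy1- libraries overlapped, with a log2 fold change of −0.23 (95% interval −1.11 to 0.64). DETCs had 543, 347, 447, 118 and 615, under every Thy1hi library (log2 fold change −1.41, SE 0.40, adjusted p = 0.00800, exact permutation p = 0.0159), and the call held in all 22 alternative fits (adjusted p 0.00165 to 0.0350).

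Ly6g6c, a member encoded in the major histocompatibility complex, differed between Thy1hi and Thy1- cells in the direction opposite to Ly6a. It had 56.3, 177, 162 and 269 normalized counts in Thy1hi libraries 1 to 4, 381, 487, 458 and 571 in Thy1- libraries 1 to 4 and 586, 384, 542 and 288 in HFSC libraries 1 to 4. All Thy1hi libraries were under all Thy1- and all HFSC libraries. The log2 fold change from Thy1- cells was −1.69 (SE 0.57, adjusted p = 0.34, exact permutation p = 0.0286), called with the replicate block (SE 0.22, adjusted p = 0.00223), with 4 of 4 pairs lower in Thy1hi cells. From HFSCs it was −1.58 (SE 0.57, adjusted p = 0.0743, exact permutation p = 0.0286), and 4 of 20 alternative fits called it, among them DESeq2 (−1.44, adjusted p = 0.0294) and the fit without Thy1hi 4 (−1.88, adjusted p = 0.0436). DETCs were not called relative to Thy1hi cells (0.45, adjusted p = 0.58), except within replicates 1 to 3 (1.24, adjusted p = 0.0246), where 7 of 8 members were called (37.5% of genes, and 42.7% with the block). YFP+ libraries had 745, 409 and 106, from within the Thy1hi range to above every other library, and their log2 fold change from Thy1hi cells of 1.14 (95% interval −0.15 to 2.43) was not called (adjusted p = 0.60). The 8 suprabasal genes of the fixed list (Krt1, Krt10, Ivl, Lor, Sbsn, Krtdap, Calml3 and Dmkn) summed to 9992 to 30247 in Thy1hi and 28860 to 43977 in Thy1- libraries, and with the block all 8 were called lower in Thy1hi cells. In YFP+ libraries 1 to 3 they summed to 64319, 41140 and 18048, in the same order as Ly6g6c.

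**Figure D3:**
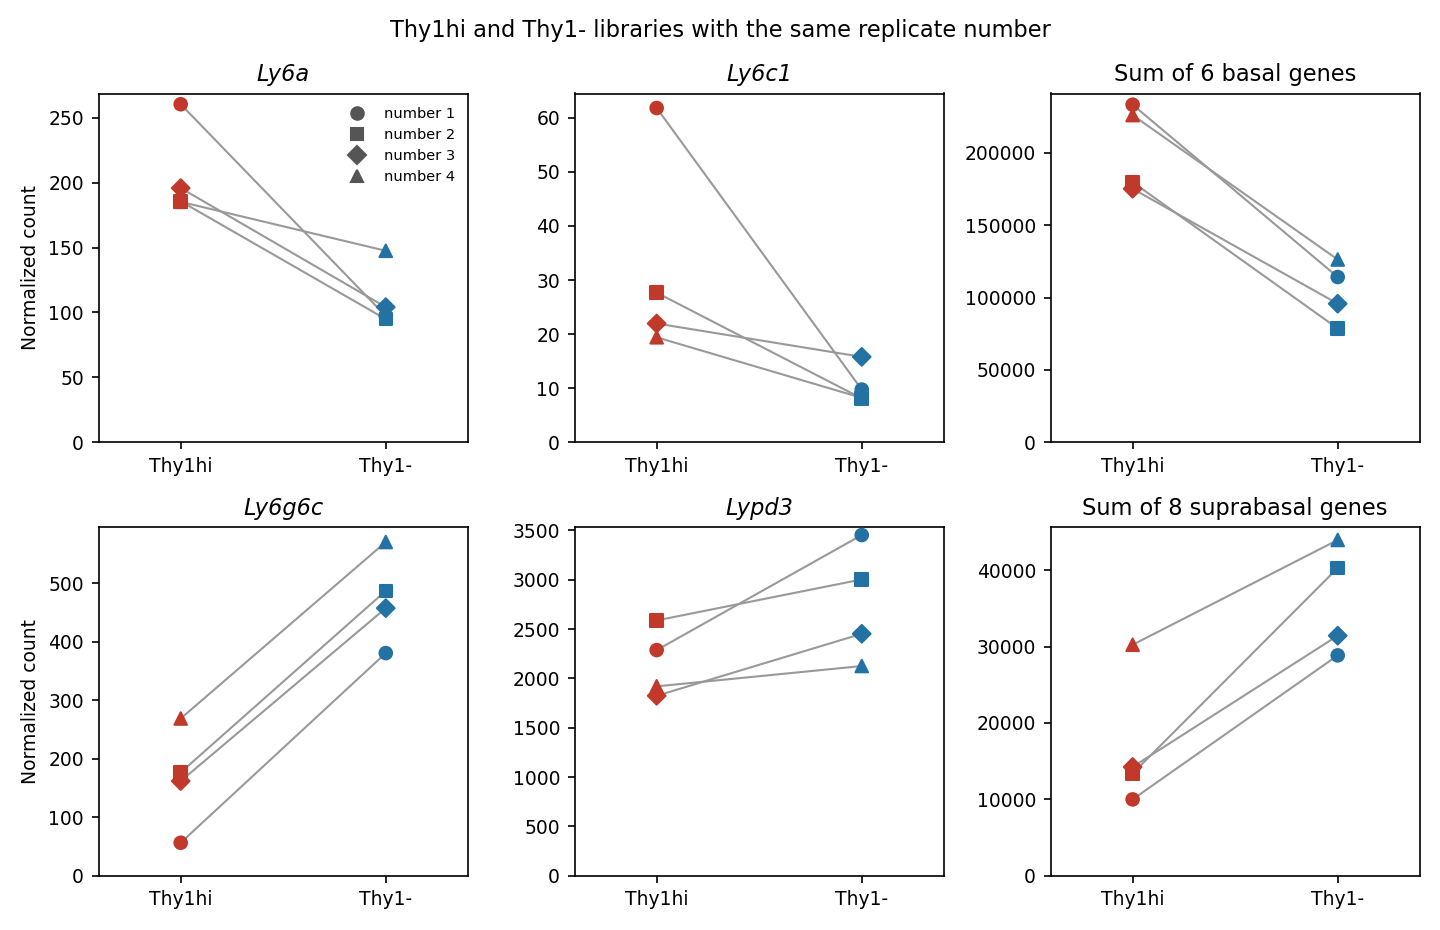
Normalized counts of Ly6a, Ly6c1, Ly6g6c and Lypd3 and the summed counts of 6 basal and 8 suprabasal genes in Thy1hi and Thy1- libraries, with lines joining libraries of the same replicate number and 1 symbol for each number. Ly6a, Ly6c1 and the basal sum are lower in the Thy1- library of all 4 pairs, and Ly6g6c, Lypd3 and the suprabasal sum are higher.

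Lynx1 was low throughout, with 18.8 to 34.9 normalized counts in Thy1hi, 26.8 to 47.4 in Thy1- and 11.2 to 44.9 in HFSC libraries. DETC libraries had 15.7, 18.3, 15.8, 12.4 and 15.6, all under every Thy1hi and every Thy1- library. The log2 fold change from Thy1hi cells was −0.76 (SE 0.38, adjusted p = 0.128, exact permutation p = 0.00794, the smallest that 5 against 4 allows).

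Plaur, the urokinase receptor, was the member with the largest difference of the 8. DETC libraries 1, 2, 3, a and b had 248, 266, 194, 571 and 394 normalized counts. Thy1hi libraries 1 to 4 had 43.1, 19.8, 43.1 and 21.3, Thy1- libraries 15.8, 37.0, 49.7 and 23.8, HFSC libraries 18.5, 41.3, 22.5 and 1.4, and YFP+ libraries 22.9, 9.29 and 23.8. Every DETC library was above every other library, and the keratinocyte and HFSC libraries overlapped. The mean in DETCs was 10.5-fold that in Thy1hi cells (log2 fold change 3.34, SE 0.60, adjusted p = 0.000163, exact permutation p = 0.00794) and 16.0-fold that in HFSCs (4.41, SE 0.60, adjusted p = 6.32e-06, exact permutation p = 0.00794), and both calls held in all alternative fits. The difference from HFSCs rested in part on HFSC 4, with 2 reads, and was 3.54 without it (adjusted p = 2.75e-06) and 3.13 within replicates 1 to 3. Between Thy1hi and Thy1- cells the log2 fold change was 0.042, and its 95% interval of −1.28 to 1.36 reached past 2-fold in both directions.

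Ly6e had 930.5, 643, 641, 464 and 387 normalized counts in DETC libraries 1, 2, 3, a and b. Thy1hi libraries 1 to 4 had 320.2, 211, 204 and 273, and HFSC libraries 1 to 4 had 321, 151, 181 and 79.9. All DETC libraries were above all libraries of both. The log2 fold change in DETCs was 1.24 relative to Thy1hi cells (SE 0.35, adjusted p = 0.00818, exact permutation p = 0.0159) and 1.84 relative to HFSCs (SE 0.35, adjusted p = 0.000303, exact permutation p = 0.00794). Thy1- libraries had 259, 342, 152 and 402 and YFP+ libraries 652, 288 and 438, which overlapped with Thy1hi and with DETC libraries. The YFP+ difference from Thy1hi cells of 0.81 (95% interval −0.024 to 1.64) was not called (adjusted p = 0.56).

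**Figure D4:**
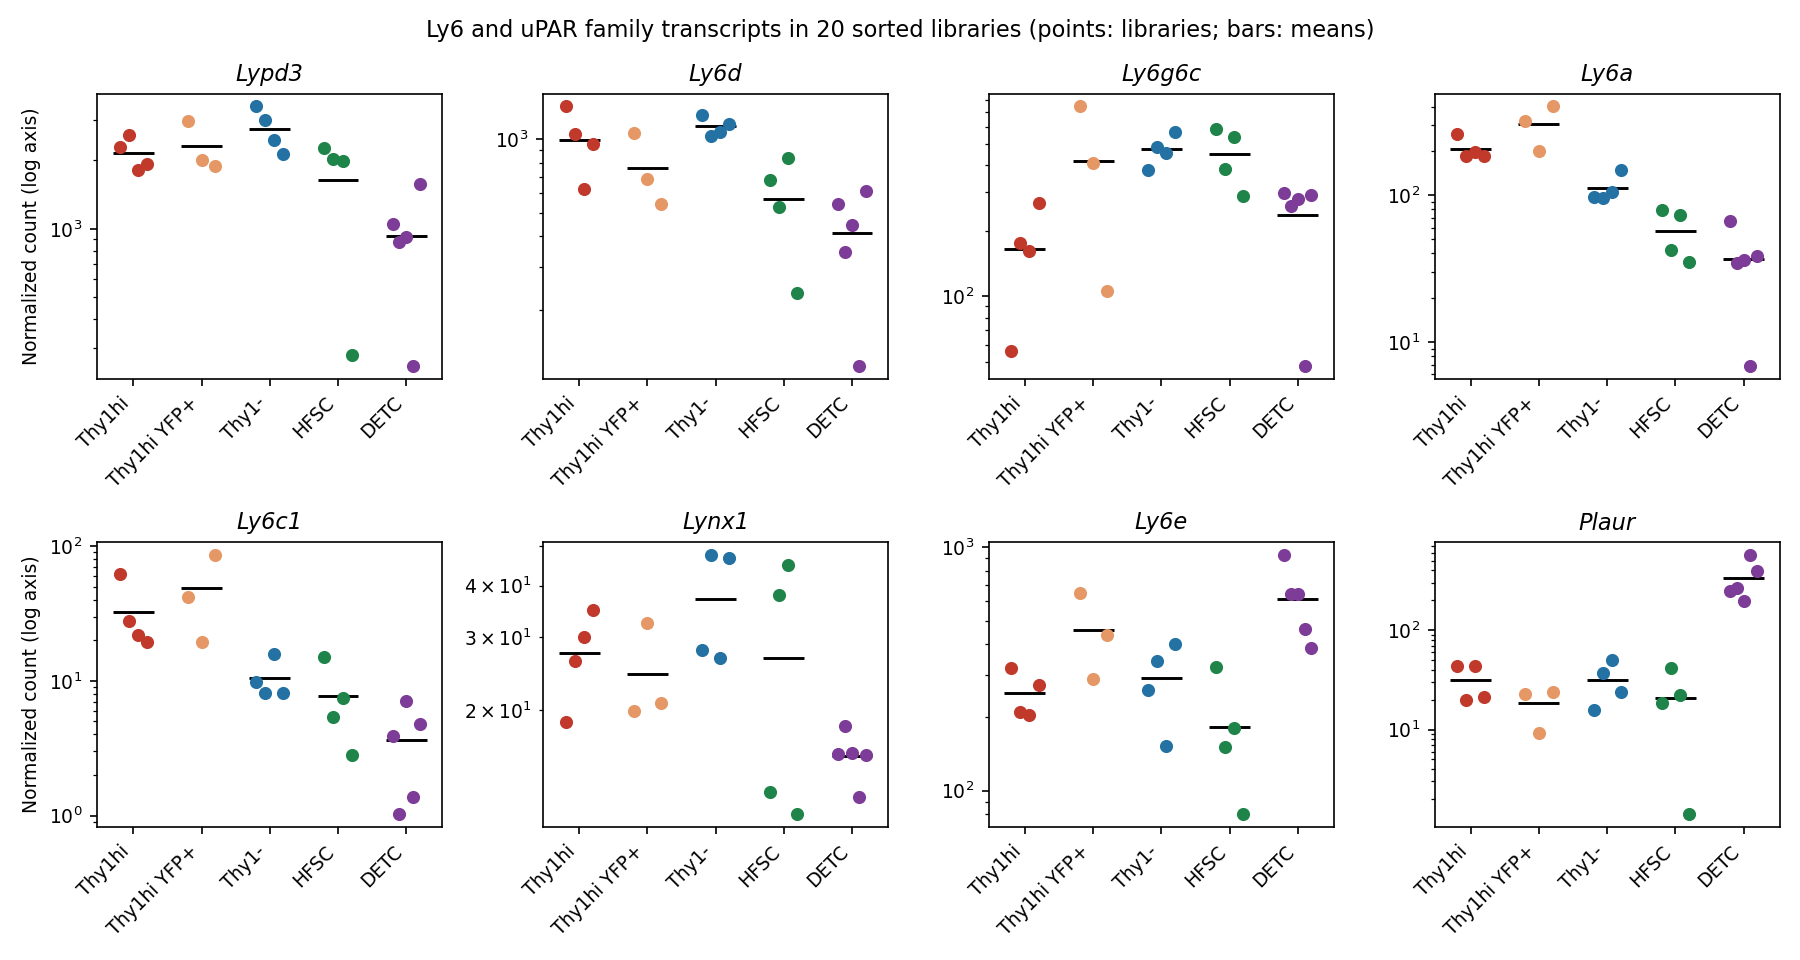
Normalized counts (log axis) of the 8 tested members in each library, by sorted population, with means as bars. Plaur is 194 or more in DETC libraries and under 50 in the other libraries, and HFSC 4 and DETC a are the lowest libraries of their populations for Lypd3 and Ly6d.

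DETC libraries also held keratinocyte RNA, given here beside the members that were lower in them. The mean of each basal gene in DETCs was 15.6% to 28.1% of that in Thy1hi cells (median 19.9%), and that of each suprabasal gene 89.0% to 222% (median 144%). Ly6c1 stood at 11.1%, Ly6a at 17.7%, Ly6d at 41.5%, Lypd3 at 43.3%, Lynx1 at 56.5% and Ly6g6c at 142%, and Ly6e at 243%. DETC a was the library with the highest T cell sum (32331) and the lowest basal (10407) and suprabasal sums (4212). In it Ly6c1 was 4.19%, Ly6a 3.32%, Ly6d 11.8%, Lypd3 11.6%, Ly6g6c 29.0% and Lynx1 44.9% of the Thy1hi mean. Plaur was highest there of all libraries. Ly6e, also called higher in DETCs, was 184% of the Thy1hi mean in DETC a, under its DETC mean of 243%. What part of the keratinocyte members' reads in DETC libraries came from other cells was not tested.

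Relative to HFSCs, the keratinocyte members in DETCs depended on the libraries. With all libraries, Lypd3 (−0.66, adjusted p = 0.32), Ly6g6c (−1.12, adjusted p = 0.108) and Ly6d (−0.51, adjusted p = 0.33) were not called. Within replicates 1 to 3 of both populations, which leaves out HFSC 4 and DETC a and b, Lypd3 (−1.15, adjusted p = 0.000130) and Ly6g6c (−0.83, adjusted p = 0.00658) were called beside Ly6e and Plaur (35.5% of genes called), and with the replicate block Ly6d as well (−0.61, adjusted p = 0.00716). The block called 5 of 8 members, in 42.2% of genes called. Ly6a differed by −0.84 with all libraries (adjusted p = 0.127) and by −0.50 within replicates 1 to 3 (adjusted p = 0.30, and 0.156 with the block), but was called without DETC 1 (−1.12, adjusted p = 0.0360). Without HFSC 4 alone Lypd3 was called (−1.38, adjusted p = 0.00605).

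Other genes of the family were mostly below the level tested. Of 34 further LY6 and uPAR genes listed, 28 were in the table and 10 were tested. None was called between Thy1hi and Thy1- cells (2 lower with the block, where 6.61% of all genes were called). Lypd6, a modulator of WNT signalling, was the 1 gene called in Thy1hi cells relative to HFSCs (4.62 ± 3.16 against 25.7 ± 10.9 normalized counts, log2 fold change −2.37, SE 0.68, adjusted p = 0.0242). Over all genes 13.4% were called in that comparison. In DETCs relative to Thy1hi cells 1 was called higher and 2 lower (19.9% and 16.6% of all genes). Ly6g5b, a member encoded near Ly6g6c, had 35.0 ± 4.11 in DETCs against 1.73 ± 0.702 in Thy1hi and 0.350 ± 0.700 in HFSC libraries (adjusted p = 2.55e-05 and 9.77e-07). It had at most 3 reads in a Thy1hi and 2 in an HFSC library, so that a fitted fold change would depend on the pseudocount. Ly6g5b passed the filter only through DETC libraries and Lypd6 only through HFSC libraries. Each was thus tested because of the population in which it was high. Lypd6 had at most 8 reads in any Thy1hi or DETC library, so its fold changes depend on the pseudocount as well. Cd59a, which blocks the complement membrane attack complex, was lower in DETCs (27.0 ± 12.0 against 79.9 ± 20.7 in Thy1hi cells, log2 fold change −1.62, adjusted p = 0.00154), as was Lypd6b (−1.29, adjusted p = 0.00484). Relative to HFSCs, 2 were called higher in DETCs, the other Lypd1 (1.64, adjusted p = 0.0159), and 3 lower, with Lypd6 (−3.32) and Cd59a (−1.65) the largest. Over all genes 21.2% were called higher and 18.5% lower there. The median of the list was −0.48 in DETCs relative to Thy1hi cells and −1.04 relative to HFSCs, beside −0.0044 and 0.023 over all genes. None was called between YFP+ and Thy1hi cells, in this list or the 3 that follow.

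The plasminogen system in which uPAR acts was tested through 12 of 15 listed genes. In Thy1hi cells relative to HFSCs, 4 were called higher and 1 lower (6.51% and 6.86% of all genes), with a median of 0.36, beside 0.024. Serpinb2, the inhibitor PAI-2, had mean normalized counts of 7471 against 2160.4 (2.12, SE 0.54, adjusted p = 0.0110), and Itgb5, an integrin subunit, had 177 ± 87.3 against 431 ± 71.5 (−1.39, adjusted p = 0.00274). Serpinb2 was also the 1 gene called in Thy1- cells relative to HFSCs (1.85, adjusted p = 0.0442), where 6.08% of all genes were called. In DETCs relative to Thy1hi cells, 3 were called higher and 7 lower (19.9% and 16.6% of all genes), with a median of −1.40, beside −0.0044. Itgav, an integrin subunit of the vitronectin receptor, had 4189 ± 2393 in DETCs against 1360.1 ± 90.0 (1.46, adjusted p = 0.000148), and Itgb5 was called higher there (0.75, adjusted p = 0.0383), while Itgb6, another integrin subunit, fell most (−2.65, adjusted p = 5.67e-05). Relative to HFSCs, Itgav was the 1 gene called higher in DETCs (1.79, adjusted p = 1.45e-05) and 4 were called lower, led by Itgb6 (−2.43) and Lrp1 (−1.19), an endocytic receptor. Over all genes 21.2% were called higher and 18.5% lower there. Plau, the ligand of uPAR, chosen for mention after its values were seen, had 87.2 ± 60.2 in DETCs, 225 ± 20.0 in Thy1hi, 295 ± 68.4 in YFP+, 176 ± 75.0 in Thy1- and 101 ± 19.1 in HFSC libraries. Between Thy1hi and Thy1- cells 0 genes of this list were called, and 3 higher and 1 lower with the block (6.61% of all genes).

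Of 29 genes that make, attach or remodel GPI anchors, 28 were tested. Between Thy1hi and Thy1- cells 0 were called, with or without the block, and the median was −0.080, beside −0.018 over all genes. Relative to HFSCs, Piga, of the first enzyme of the pathway, was called higher in Thy1hi cells (1.27, adjusted p = 0.0113) and Dpm1, which makes its mannose donor, was called higher in Thy1hi (0.93, adjusted p = 0.0248) and Thy1- cells (1.12, adjusted p = 0.0158). In DETCs 2 were called higher and 5 lower relative to Thy1hi cells, led by Pgap1 (0.96) and Pigm (0.47) and by Pigq (−0.88) and Pigt (−0.88). Relative to HFSCs 4 were called higher and 9 lower, led by Piga (1.16) and Dpm1 (0.88) and by Gpld1 (−1.85) and Pigyl (−1.61). Over all genes, DETC calls were 19.9% higher and 16.6% lower relative to Thy1hi cells, and 21.2% and 18.5% relative to HFSCs. In Thy1hi and Thy1- cells relative to HFSCs, 13.4% and 6.08% of all genes were called.

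Interferon-stimulated genes were read beside Ly6e, Ly6a and Ly6c1, which interferon can induce, through 14 of 16 listed genes. In DETCs 3 were called higher and 2 lower relative to Thy1hi cells, beside 19.9% and 16.6% of all genes. Bst2 (2.96, adjusted p = 0.000297) and Isg15 (2.33, adjusted p = 0.00246) were higher there, while Ifitm3 (−2.70, adjusted p = 0.000385) and Usp18 (−1.36, adjusted p = 0.0265) were lower. Relative to HFSCs 5 were called higher and 0 lower in DETCs (21.2% and 18.5% of all genes), led by Isg15 (3.61) and Bst2 (3.20). In Thy1hi cells relative to HFSCs 2 were called higher (6.51% of all genes), Oasl2 (2.01, adjusted p = 0.0154) and Ifitm3 (1.88, adjusted p = 0.0290), with a list median of 0.65. Relative to Thy1- cells 0 were called, and 2 higher with the block (6.61% of all genes). Whether interferon had a part in the differences of the members was not tested.

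The genes whose log2 counts were most like a member's over the 20 libraries are given as a description, since the libraries share populations and depth. Ly6a was most like Krt14 (Pearson r = 0.976), the keratin of basal cells, followed by Gpt (0.967) and Hist1h1b (0.965). Ly6c1 was most like Ltv1 (0.939), Krt14 (0.915) and Anxa2 (0.912). Ly6g6c was most like Krt10 (0.970) and Krt77 (0.969), keratins of suprabasal cells, and Ppfia3 (0.949). Lypd3 was closest to Sowahc (0.966), Epha2 (0.964) and Plet1 (0.961), and Ly6d to Sowahc (0.942), 2310007B03Rik (0.933) and Lypd3 itself (0.925). For Plaur they were Ptp4a1 (0.956), Vps37b (0.955) and Furin (0.955), for Ly6e Emc10 (0.880), Slfn2 (0.850) and Sh3bgrl3 (0.843), and for Lynx1 Nfe2l1 (0.804), Cdc42ep4 (0.803) and Neurl1b (0.774). Among the members themselves r ran from −0.524 (Ly6a and Plaur) to 0.925 (Ly6d and Lypd3). The neighbours Ly6a and Ly6c1 had r = 0.899, and the neighbours Ly6e and Ly6a r = −0.0179.

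**Figure D5:**
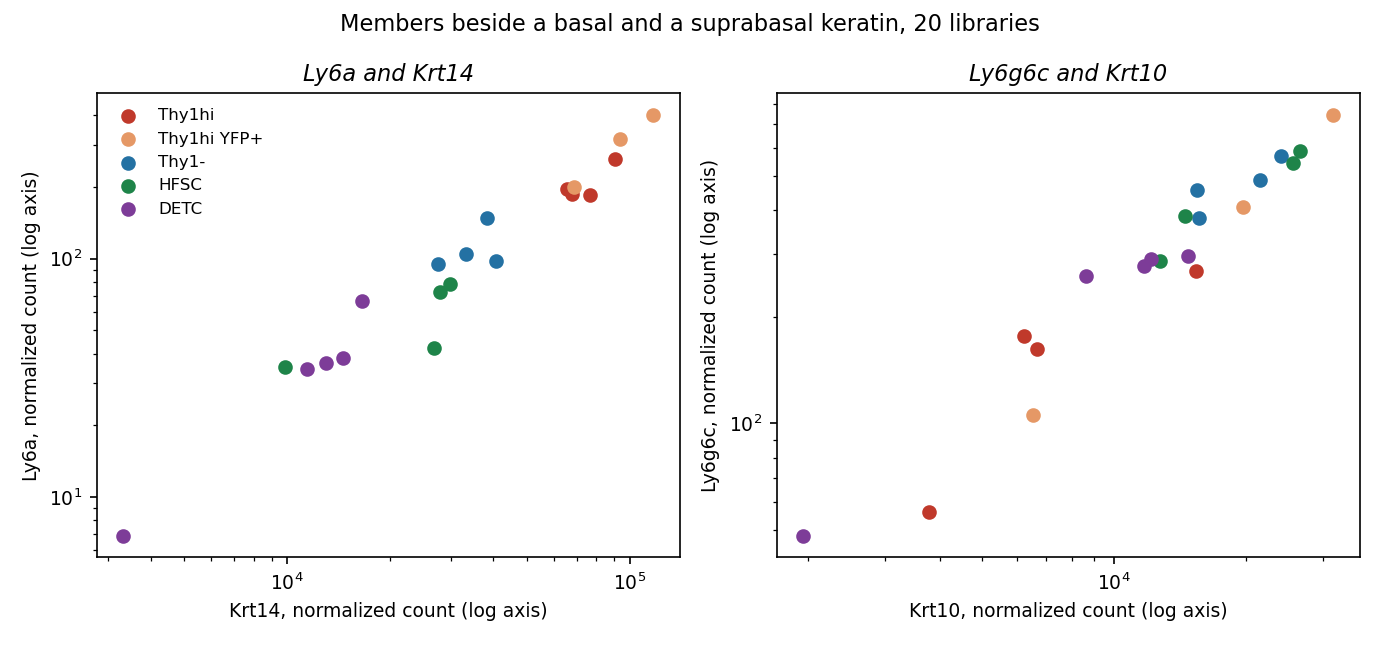
Normalized counts (log axes) of Ly6a against Krt14 and of Ly6g6c against Krt10 in the 20 libraries, coloured by sorted population. Ly6a follows Krt14 from DETC a at the low end to the Thy1hi and YFP+ libraries at the high end (r = 0.976 on the log2 scale), and Ly6g6c, lowest in DETC a and Thy1hi 1, follows Krt10 (r = 0.970).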

How the data were processed

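RNA of cells sorted from dorsal epidermis was sequenced in single reads. The authors used STAR for alignment to mm10 and featureCounts for counts per Ensembl gene, and the deposited values are a signal, namely these counts over a size factor for each library. They returned whole reads for at least 99.998% of values (within 0.0051 of a value). Kits differed between libraries and are not assigned by the labels. In Thy1- library 4, values followed gene names with hyphens ignored and were put back (at displaced genes, r with the mean Thy1- level elsewhere was 0.0579 before and 0.929 after).

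The log2(value + 1) of all 20 libraries was modelled with limma (lmFit, then eBayes with its trend option), with 1 mean per population and no covariate. Adjusted p-values are two-sided, follow Benjamini and Hochberg over the 17204 genes that reached 10 in 3 or more libraries, and come from limma except where DESeq2 or edgeR is named. Differences under 0.05 were called. Single members also had an exact two-sided permutation test on the difference of their mean log2 values. Members and gene lists were chosen with earlier results of these data known. From each list, the called genes with the 2 largest rises and 2 largest falls are named, and for each tested member the 3 genes of highest Pearson r. A gene that this rule names is not reported here. Thy1hi and Thy1- libraries with the same number deviated together from their population means (r 0.293 to 0.716). Different numbers had r −0.651 to 0.514, so these ranges overlapped. For replicates 1 to 3 of DETCs and HFSCs the same numbers had r 0.170 to 0.333. Different numbers of these populations had r −0.318 to 0.371, so equal numbers did not stand out as pairs there. The block rests on the numbers alone, and blocked values are given where they change a call. Alternatives were pseudocounts of 0.1 and 10, other filters and scalings, edgeR and DESeq2 (on the recovered reads), fits of 2 populations alone, the deposited row order and each library left out. Leaving out both libraries numbered 4 of Thy1hi and Thy1- cells, and replicates 1 to 3 alone with or without the block, were added after the data were seen. The fit was tested on simulated data. Tools were R 4.3.3, limma 3.58.1, edgeR 4.0.16, DESeq2 1.42.0, Python 3.11.15, numpy 2.4.6, pandas 2.3.3 and matplotlib 3.10.9.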

Additional observations from a re-analysis of the deposited data

Results flagged for a closer look

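Of 32 sets of 4 or 5 libraries of 1 member in 1 population, 3 held a library whose gap to the next filled most of the range (Dixon's 95% critical value), and chance alone flags about 1 in 20 such sets. Lypd3 had 279 normalized counts in HFSC 4, against 1993 to 2262 in the other 3 HFSC libraries. Ly6g6c had 48.0 in DETC a, against 260.3 to 297 in the other 4 DETC libraries. Ly6a had 261 in Thy1hi 1, against 185 to 196 in the other 3 Thy1hi libraries.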

How the results depend on the processing

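For single members, 934 values under an alternative kept their direction and side of the threshold, 18 gained a call, 8 lost one and 12 changed sign. The replicate block raised the members called between Thy1hi and Thy1- cells from 0 to 3 (Ly6a, Ly6c1 and Ly6g6c). In Thy1hi cells relative to HFSCs, a mean of at least 50 left 1 of 2, since Ly6c1 was then not tested, and leaving out single libraries gave 1 to 3. Rescaling to the same total called 1 member, Ly6d, in Thy1- cells relative to HFSCs, and moved its level in Thy1- cells from 1131 to 1252. In DETCs relative to HFSCs the members called rose from 2 to 4 with replicates 1 to 3 alone (35.5% of genes called) and to 5 with the replicate block (42.2%). Leaving out single libraries gave 2 to 3 there, 5 to 6 in DETCs relative to Thy1hi cells and 0 in the other 3 comparisons. The replicate block changed no call of a member between Thy1hi or Thy1- cells and HFSCs or between YFP+ and Thy1hi cells. For DETCs relative to Thy1hi cells, as for DETCs and HFSCs, equal numbers did not stand out as pairs. Relative to Thy1hi cells 7 of 8 members were called with replicates 1 to 3, without (37.5% of genes called) or with the block (42.7%), Ly6g6c (1.24) being the addition.

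Signs turned only in differences that were not called. Plaur between Thy1hi and Thy1- cells went from 0.042 to −0.081 at equal totals and ran from −0.24 to 0.29 with single libraries left out, below 0 without Thy1hi 1 or 3 or Thy1- 1 or 4. Ly6e there ran from −0.41 to 0.055, above 0 without Thy1- 4, and was 0.0089 without both libraries numbered 4. Lynx1 in Thy1hi cells relative to HFSCs ran from −0.060 to 0.58, below 0 without HFSC 1 or 4, and Ly6g6c in Thy1- cells relative to HFSCs from −0.081 (without HFSC 4) to 0.26. In YFP+ relative to Thy1hi cells, Ly6c1 ran from −0.037 (without YFP+ 3) to 1.01 and Lypd3 from −0.13 (without YFP+ 1) to 0.20. Lynx1 in DETCs relative to Thy1hi cells was called only after quantile normalization (−1.0, adjusted p = 0.0329). The cause of these changes was not tested. Depth limits Ly6c1, Ly6c2 and Ly6k, which had few reads in HFSC and DETC libraries. Over all genes, edgeR on the recovered reads called 44, 2498, 1288, 6074, 6671 and 2 genes in the 6 comparisons in the order given in the report. DESeq2 called 210 genes between Thy1hi and Thy1- cells (58 by limma), 2402 between Thy1- cells and HFSCs (1046) and 102 between YFP+ and Thy1hi cells (2), and none of these added calls was a member.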
